A study of Sus scrofa with 9 samples.

Results

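Enzymes that consume or release aspartate, with neighbouring steps of nucleotide and arginine synthesis, were followed in pig oocytes matured with or without heat and L-Asp. The genes were taken by symbol from the deposited gene table: CAD, DHODH, UMPS, GART, PAICS, ADSL, ATIC, ASS1, ASL and ASRGL1. All 10 were found, among 23507 genes in all, and 8 of the 10 had enough counts to be tested. ASS1 and ASL did not pass the filter on low counts and are given by their values.

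The libraries hold polyadenylated RNA of wild-type pig oocytes (Sus scrofa) that had reached metaphase II (MII), where the egg waits for fertilisation. Oocytes with compact cumulus layers were matured in culture, in medium with follicular fluid and gonadotropins. The control group stayed at 38.5 °C throughout. The heat stress group was held at 41.5 °C for 24 h from the germinal vesicle stage and then at 38.5 °C until MII. The heat stress plus L-Asp group had the same culture, with L-Asp (by its usual code, the amino acid L-aspartic acid) in the medium while heated. Concentrations of 0.5, 1.0 and 1.5 mmol/L are listed, with no word on which was sequenced. Each group had 3 libraries, and 25 oocytes per group are stated without their division among libraries or animals. P-values therefore measure only the spread between these libraries, which may be technical.

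Aspartate is a building block for nucleotides as well as for protein. In the pyrimidine pathway the whole molecule is joined to carbamoyl phosphate, and most of it, though not all its carbon, becomes part of the ring. In the purine pathway it lends only its nitrogen: it is first attached to the growing ring and its carbon skeleton then leaves as fumarate. The same attach-and-release chemistry runs in arginine synthesis, where ASS1 joins aspartate to citrulline and ASL releases fumarate. A maturing oocyte stores RNA for the embryo and is known to take up and salvage nucleosides and bases as well as to make purines itself.

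Library totals ran from 41693395 to 58361475 counts. The 3 control libraries differed from one another by little more than sampling noise: the squared difference between a pair, relative to independent counting, had a median of 5.19 to 5.22, against 79.4 to 119 within the heated groups. They were therefore averaged and counted as 1 sample, so that 7 libraries entered the test. The control has no error of its own and was assumed to vary like the heated groups. Low counts piled up at 4 (604 genes at 4 counts in control replicate 1, 330 at 3 and 216 at 5), as if a fragment added about 4 counts. Genes with any count numbered 17433 to 17685 in control and 14730 to 15808 in the heated libraries. Mitochondrially encoded genes took 10.04% to 10.1% of counts in control, 3.09%, 5.18% and 14.5% in heat stress and 5.30%, 9.47% and 9.29% with L-Asp.

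Of 18 oocyte markers 16 were matched, none of them at 0 in any group. Their summed level was 36280 CPM (counts per library, brought to one scale by TMM) in control, 19267.5 to 23646 CPM in heat stress and 23833 to 27771 CPM with L-Asp. The sum hides both directions: in heat stress all libraries lay below control for 8 of the 16 markers and above it for 4, against 25% and 17.3% of all tested genes. ZP4, a protein of the egg coat, measured 706 CPM in control, 796 to 1594 CPM in heat stress and 1412 to 1967 CPM with L-Asp. It was among the 4 above control. BMP15 and MOS, among the 8 below, had log2 fold changes of -1.32 ± 0.34 and -1.26 ± 0.31 (SE) for heat stress over control. Of 25 cumulus and granulosa markers 21 were matched. They summed to 1282 CPM in control, 1319 to 1677 CPM in heat stress and 1294 to 1335 CPM with L-Asp, most of it RGS2 and VCAN. That sum hides scarcer members: of 15 with enough counts to be tested, 8 lay above control in all heat stress libraries and 0 below, and 8 above and 4 below with L-Asp (19% and 26% of all tested genes). CYP11A1, which makes pregnenolone from cholesterol, had 0, 0 and 6 counts in control and measured 5.98, 6.37 and 15.1 CPM in heat stress and 1.32, 7.80 and 0.687 CPM with L-Asp. GJA1, a gap junction protein, measured 0.80 CPM in control, 6.97 to 13.4 CPM in heat stress and 1.597 to 7.03 CPM with L-Asp. GATA6 and INHBA had 0 counts in control and were detected in every heated library. None of the tested markers passed by edgeR (smallest adjusted p = 0.563), the ones named here were chosen after their values were seen, and their part in the enzyme values was not tested. PTX3 was at 0 in all libraries, and 7, 4 and 2 of the markers were at 0 in the 3 groups in that order. Theca and stroma markers summed to 4.75 to 11.9 CPM, blood and immune markers to 0.214 to 5.38 CPM and endothelial markers to 23.6 to 42.5 CPM over the libraries. In bulk libraries, fewer cells of a type and less RNA per cell cannot be told apart.

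By level per transcript length, the enzymes formed a steep order, and the order of the group means was the same in all 3 groups. In the deposited FPKM values (fragments per kilobase of transcript, scaled to library size), PAICS, which carries out a carboxylation of the purine ring and then attaches aspartate, led at 39.2 ± 0.85 FPKM in control, 49.5 ± 4.64 FPKM after heat stress and 44.4 ± 8.28 FPKM with L-Asp (SD, n = 3 libraries each; the control SD is that of near-identical libraries). Among the 19657 genes with any FPKM in control, it stood at the 94.2 percentile. ATIC, which closes the purine ring, followed at 18.6 ± 0.664, 21.2 ± 2.65 and 19.4 ± 2.303 FPKM. DHODH, the mitochondrial enzyme that oxidises dihydroorotate, stood at 15.3 ± 1.03, 19.02 ± 3.65 and 16.8 ± 3.09 FPKM. Its libraries overlapped those of ATIC in both heated groups, though not in control. UMPS, which makes UMP from orotate, measured 5.56 ± 0.144, 7.91 ± 2.32 and 7.48 ± 1.04 FPKM.

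The remaining enzymes were scarcer. ASRGL1, an asparaginase that releases aspartate from asparagine and from isoaspartyl dipeptides, measured 3.85 ± 0.252, 6.02 ± 4.28 and 1.63 ± 0.164 FPKM. It overlapped UMPS after heat stress and lay below UMPS in every library of the other groups. ADSL, the lyase that removes fumarate at both aspartate-dependent purine steps, measured 0.945 ± 0.067, 1.035 ± 0.59 and 0.889 ± 0.145 FPKM. GART, which performs 3 early reactions of the purine pathway, stood at 0.437 ± 0.087, 0.415 ± 0.205 and 0.427 ± 0.165 FPKM. CAD, the large protein that starts pyrimidine synthesis and holds the aspartate transcarbamylase activity, was lowest of the tested enzymes at 0.156 ± 0.033, 0.072 ± 0.022 and 0.315 ± 0.176 FPKM. After heat stress ADSL and GART overlapped, and with L-Asp GART and CAD did.

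**Figure D1:**
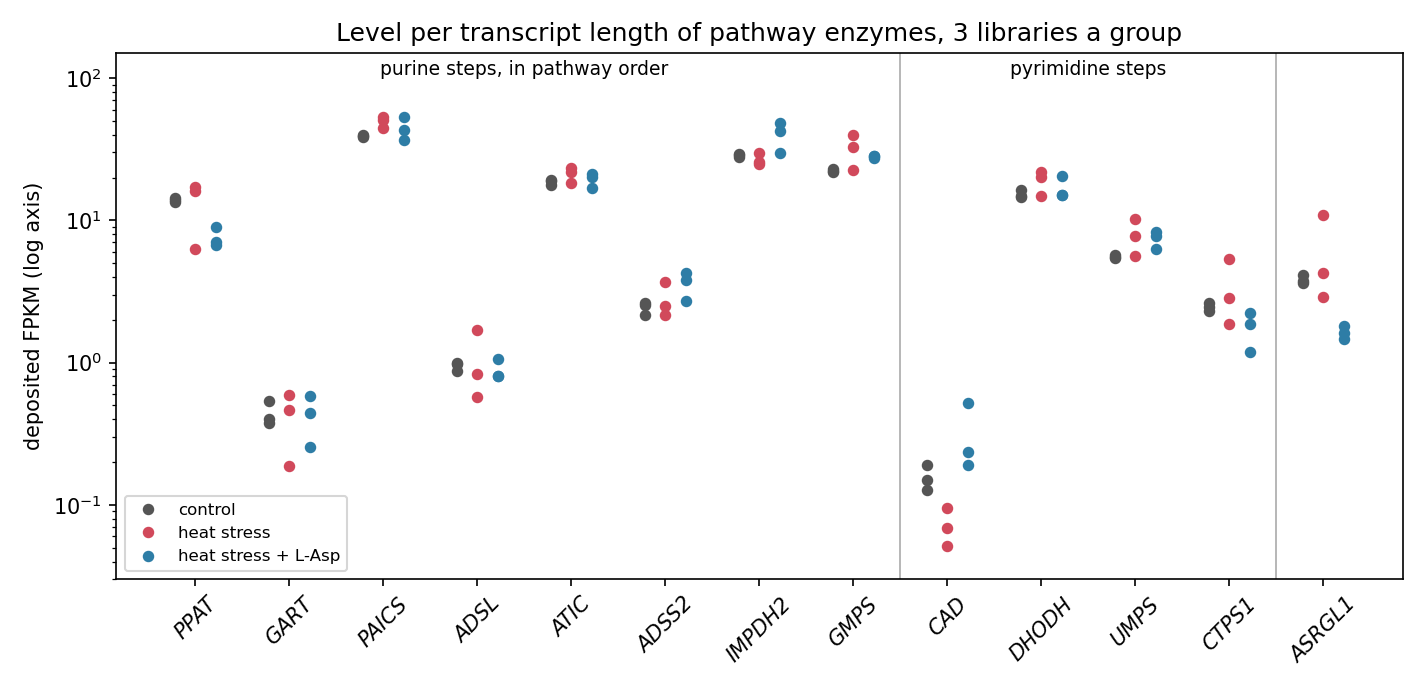
Deposited FPKM (log axis) of pathway enzymes in the 3 libraries of each group, with purine steps in pathway order on the left, pyrimidine steps next and ASRGL1 last. PPAT, ADSS2, IMPDH2, GMPS and CTPS1 are neighbouring steps shown for level; PAICS and ATIC lie far above GART and ADSL, and DHODH and UMPS far above CAD, in every library.

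Steps of one pathway thus sat at very unequal levels. Within single libraries the FPKM of PAICS was 71.8 to 235 times that of GART and 31.4 to 88.5 times that of ADSL. The FPKM of UMPS was 28.4 to 44.8 times that of CAD in control, 59.7 to 153 times after heat stress and 16.1 to 40.5 times with L-Asp. These ranges did not overlap between heat stress and either other group, and neither did the CAD values alone. CAD held only 40, 27 and 23 counts in the heat stress libraries. Of all tested genes, 25% lay below control in all heat stress libraries and 6.31% lay higher with L-Asp than in all heat stress libraries. FPKM rests on the transcript length that the authors used. The ratio of counts to FPKM gives about 6.72 kb for GART, 8.44 kb for CAD, 4.83 kb for PAICS and 2.06 kb for ASRGL1. Whether oligo(dT) priming covers such long transcripts as well as short ones was not tested.

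Among the pyrimidine enzymes, CAD (ENSSSCG00000028978, chromosome 3, 111887020 to 111914492, minus strand; genome build: not given in the sources used here) measured 1.76, 1.16 and 1.37 CPM in the control libraries. The heat stress libraries held 0.81, 0.526 and 0.447 CPM, and those with L-Asp 1.97, 4.305 and 1.63 CPM. All heat stress libraries lay below control and below all libraries with L-Asp, so that the heated groups did not overlap. The log2 fold change of heat stress plus L-Asp over heat stress was 2.14 ± 1.004 (SE), or 4.42-fold with a 95% interval of 0.957 to 20.4. It did not pass (edgeR's quasi-likelihood test, Benjamini-Hochberg adjusted p = 0.738). Without L-Asp replicate 2, the highest library, it was 1.62.

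The CAD values rest on few fragments. Raw counts were 87, 61 and 71 in control, 40, 27 and 23 after heat stress and 97, 213 and 69 with L-Asp. At 4 counts per fragment the lowest of these would be 5.75 fragments. Heat stress against control gave a log2 fold change of -1.26 ± 1.28 (SE; edgeR, adjusted p = 1), with an interval of -4.08 to 1.56. L-Asp against control gave 0.89 ± 1.44, and 0.35 without L-Asp replicate 2. CAD was therefore the tested enzyme with the widest intervals in all 3 comparisons.

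DHODH (ENSSSCG00000002746, chromosome 6, 14942934 to 14955997) measured 32.5, 35.8 and 31.4 CPM in control, 30.2, 39.4 and 41.8 CPM in heat stress and 40.3, 29.8 and 30.4 CPM with L-Asp. The 3 groups overlapped fully. Its log2 fold changes were 0.16 ± 0.38 for heat stress over control, -0.15 ± 0.27 for L-Asp over heat stress and 0.0097 ± 0.38 for L-Asp over control.

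UMPS (ENSSSCG00000011864, chromosome 13, 135610058 to 135650603) measured 40.2, 42.3 and 40.6 CPM in control, 38.6, 62.6 and 54.7 CPM in heat stress and 42.4, 56.2 and 53.2 CPM with L-Asp. One heat stress library lay below control and the others above it, while all libraries with L-Asp lay above control. The fold changes were 1.27 (95% interval 0.718 to 2.24) for heat stress over control and 1.23 (0.70 to 2.18) for L-Asp over control. The heated groups differed by -0.038 ± 0.26 on the log2 scale. None of these passed by edgeR (adjusted p of 0.997 or more).

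**Figure D2:**
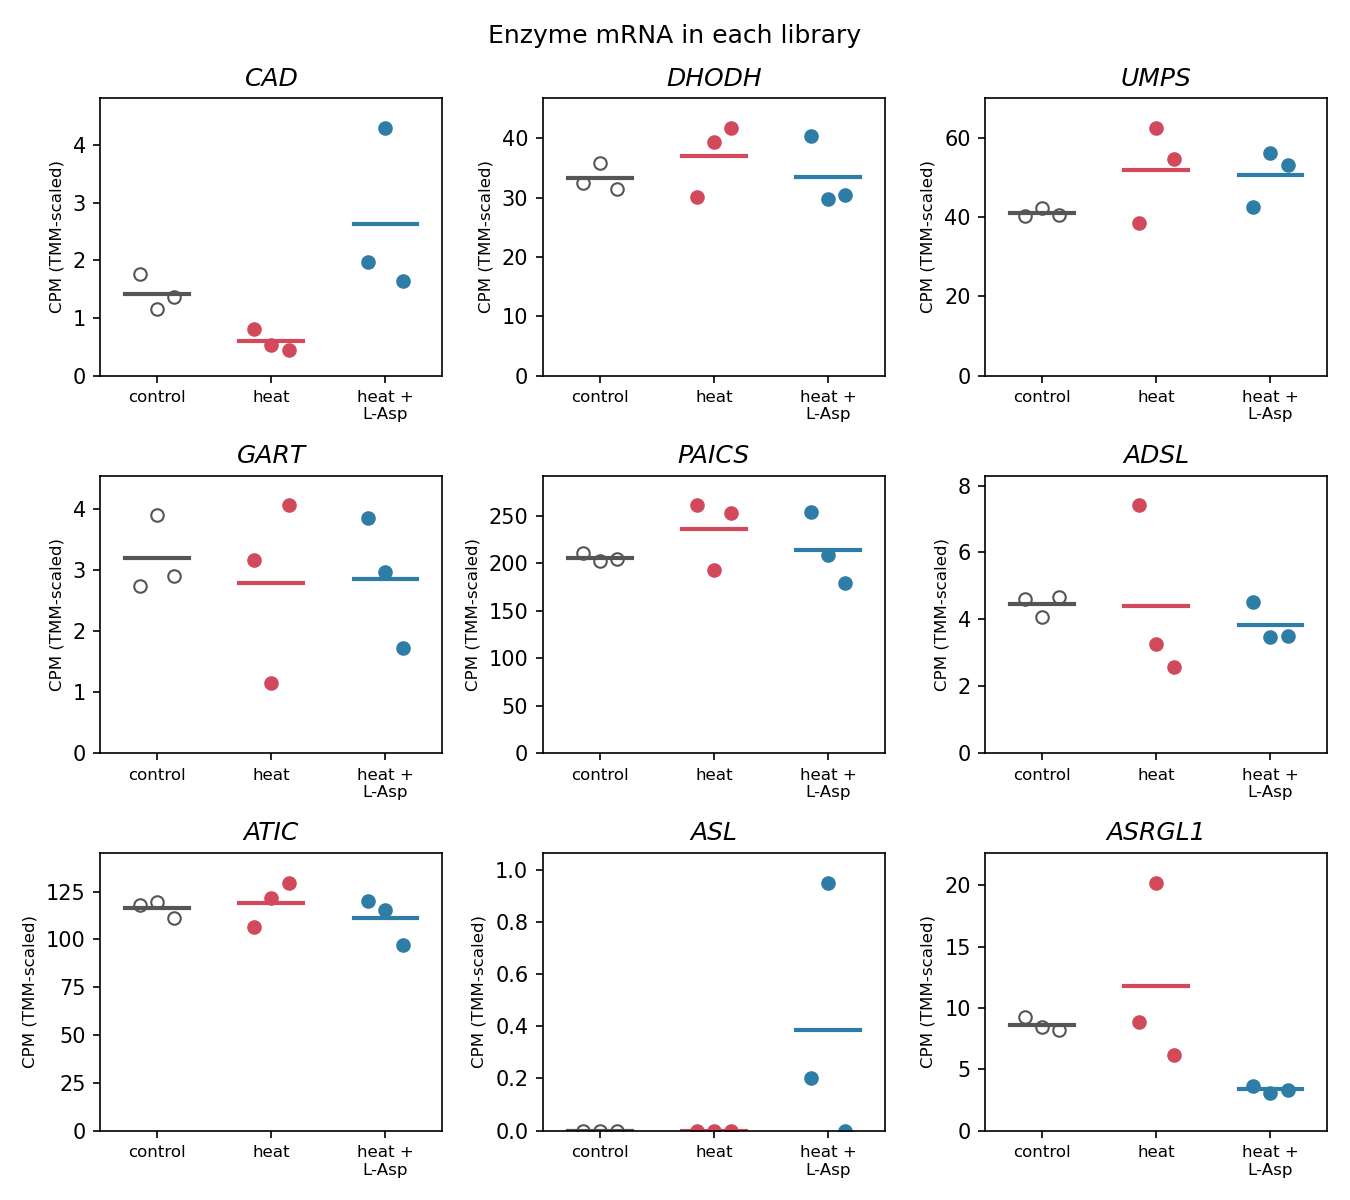
CPM of 9 enzymes in each library (points; open for control, whose 3 libraries were averaged) with the group mean as a bar; ASS1 is at 0 throughout and not drawn. ASRGL1 with L-Asp lies below every other library, CAD after heat stress likewise, and the other tested enzymes overlap between the heated groups.

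Among the purine enzymes, PAICS (ENSSSCG00000008901, chromosome 8, 55700956 to 55722979, plus strand) measured 211, 202 and 204 CPM in control. The heat stress libraries held 261, 193 and 253 CPM and those with L-Asp 255, 209 and 179 CPM. Both heated groups spread to either side of control. The log2 fold changes were 0.20 ± 0.31 over control for heat stress, -0.14 ± 0.21 for L-Asp over heat stress, with a 95% interval of -0.61 to 0.33, and 0.056 ± 0.304 for L-Asp over control.

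PAICS overlaps PPAT, the amidotransferase that commits ribose phosphate to purine synthesis, head to head over 122 bases. Without strand, reads in this stretch cannot be told apart. PPAT measured 59.8 CPM in control, 68.2, 57.05 and 25.6 CPM in heat stress and 27.8, 35.6 and 26.8 CPM with L-Asp. The FPKM ratio of PAICS to PPAT was 2.73 to 2.86 in control and 3.13, 2.77 and 8.08 in heat stress replicates 1, 2 and 3. With L-Asp it was 7.49, 4.79 and 5.46. Heat stress replicate 3 and all libraries with L-Asp thus lay well above the others. PPAT itself did not pass (log2 fold change of L-Asp over control -0.99 ± 0.46, edgeR, adjusted p = 1).

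ATIC (ENSSSCG00000016173, chromosome 15, 117617502 to 117649107) varied least of the enzymes after heat stress, and with L-Asp least but for ASRGL1. It measured 118, 119.8 and 111 CPM in control, 106, 121 and 129.7 CPM in heat stress and 120.3, 115.6 and 97.1 CPM with L-Asp. The groups overlapped, and the coefficient of variation was 9.88% after heat stress and 11.03% with L-Asp. The median over all tested genes was 41.0% and 36.1%, which includes many genes of lower counts. For L-Asp over heat stress the fold change was 0.932, with a 95% interval of 0.686 to 1.27, the narrowest among the enzymes.

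GART (ENSSSCG00000030677, chromosome 13, 197130904 to 197161891) measured 2.73, 3.91 and 2.91 CPM in control, 3.16, 1.15 and 4.07 CPM in heat stress and 3.85, 2.97 and 1.73 CPM with L-Asp. Heat stress replicate 2 was its lowest library. ADSL (ENSSSCG00000000077, chromosome 5, 8025508 to 8047603) measured 4.596, 4.08 and 4.66 CPM in control, 7.41, 3.25 and 2.57 CPM in heat stress and 4.52, 3.48 and 3.505 CPM with L-Asp. Heat stress replicate 1 was its highest. In heat stress a single library thus stood apart for each of the genes. For L-Asp over heat stress the log2 fold change was 0.03 ± 0.74 for GART and -0.20 ± 0.596 for ADSL, and leaving out 1 library turned either sign.

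The arginine branch was hardly represented. ASS1 (ENSSSCG00000005701, chromosome 1, 270531589 to 270586364) had 0 counts in all 9 libraries. Taking 3 fragments of 4 counts as the most that a count of 0 allows, its level could have been up to 0.229 to 0.284 CPM, for counting error only. ASL (ENSSSCG00000007738, chromosome 3, 16637545 to 16646867) had 0 counts in control and heat stress and 10, 47 and 0 counts with L-Asp. That is 0.203 CPM in L-Asp replicate 1, under the 0.243 CPM that 12 counts give there, and 0.95 CPM in replicate 2. ASL RNA was thus above that limit in 1 library.

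ASRGL1 (ENSSSCG00000013065, chromosome 2, 9328269 to 9353340, minus strand) had the smallest p of the enzymes, that for L-Asp over heat stress. It measured 9.27, 8.43 and 8.18 CPM in control. The heat stress libraries held 8.87, 20.2 and 6.19 CPM, and those with L-Asp 3.67, 3.03 and 3.34 CPM. All libraries with L-Asp lay below all others, while heat stress libraries lay on both sides of control. Libraries with L-Asp were close together (coefficient of variation 9.53%) and heat stress libraries far apart (63.3%).

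For L-Asp over heat stress, the log2 fold change of ASRGL1 was -1.81 ± 0.52 (SE), a fold of 0.285 with a 95% interval of 0.129 to 0.63. It did not pass by edgeR over all genes (adjusted p = 0.738), and DESeq2 gave an adjusted p of 0.0599. Without heat stress replicate 2, its highest library, the log2 fold change was -1.17 (edgeR, adjusted p = 0.805). For L-Asp over control it was -1.36 ± 0.67 (edgeR, adjusted p = 1). For heat stress over control it was 0.45 ± 0.73, and -0.20 without heat stress replicate 2. Heat stress replicate 2 was the highest heat stress library for 4 of 17 detected cumulus and granulosa markers, against 3 in replicate 1 and 10 in replicate 3. The 6 matched blood and immune markers summed to 5.38 CPM in it, against 0.466 and 0.214 CPM in replicates 1 and 3; their part in the ASRGL1 value was not tested.

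**Figure D3:**
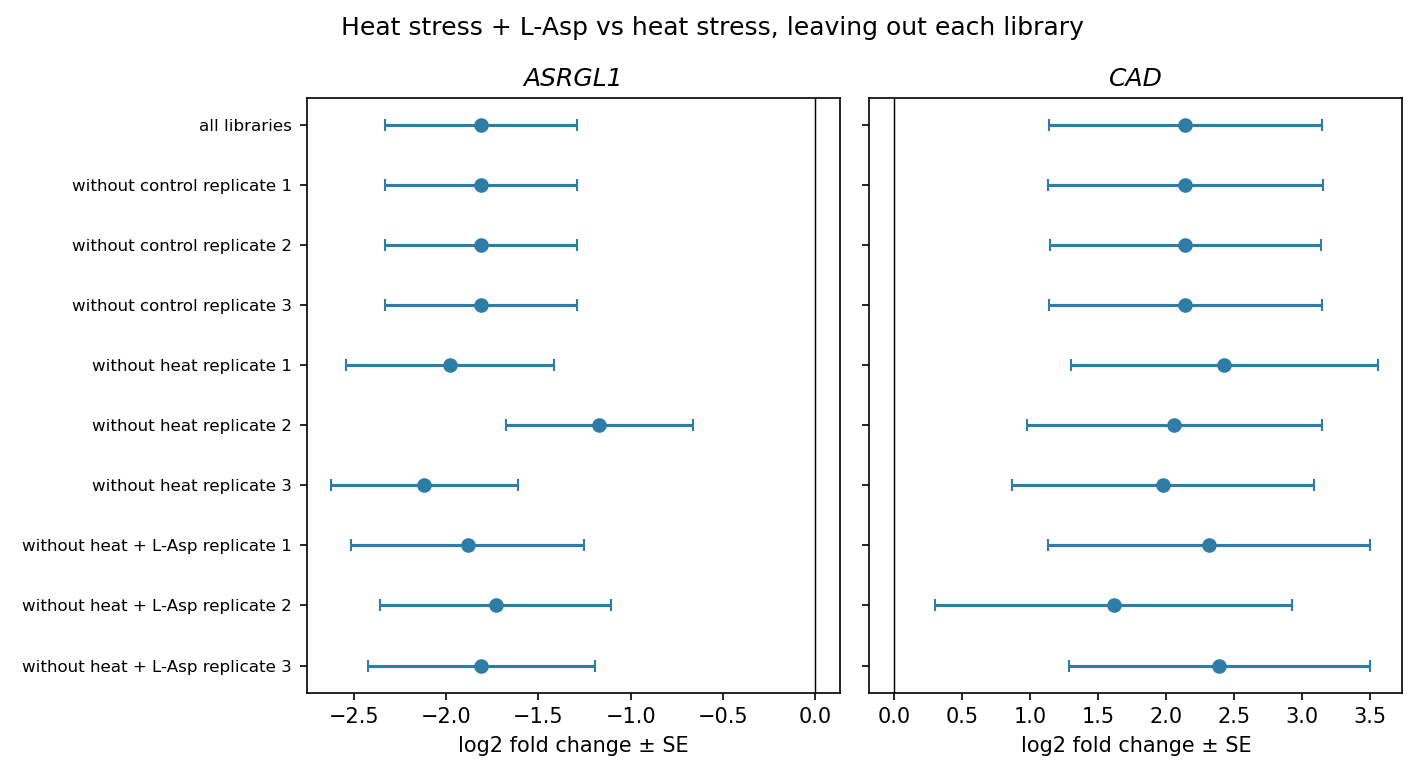
Log2 fold change (± SE) of ASRGL1 and CAD for heat stress plus L-Asp over heat stress, with all libraries and with each left out in turn. ASRGL1 stays between -2.12 and -1.17 and CAD between 1.62 and 2.43; heat stress replicate 2 matters most for ASRGL1 and L-Asp replicate 2 for CAD.

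Counted together, the tested enzymes lay on both sides of 0 in each comparison, and whether they shifted as a set was not tested. By edgeR none of the 8 passed in any comparison, where 0% of the 15012 genes tested passed in either direction. At an unadjusted p under 0.05 there were 0 of 8 for heat stress against control (background 3.86%), 1 for L-Asp against heat stress (ASRGL1; background 6.61%) and 0 for L-Asp against control (background 3.22%). DESeq2 called none of them either. It called few of all genes in any comparison (counts given below), so this says little about the enzymes. For heat stress over control 5 of 8 lay above 0 (50.1% of all tested genes did), and the median log2 fold change was 0.096 against 0.0016 over all. For L-Asp over heat stress 2 lay above 0 and 6 below (49% of all lay above), with a median of -0.12 against -0.01. For L-Asp over control 4 lay on each side (50.5% of all lay above), with a median of -0.029 against 0.0067.

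Groups that did not overlap were few. In heat stress all libraries lay below control for 1 of 8 (CAD), where 25% of all tested genes did, and above it for 0 of 8, where 17.3% did. With L-Asp 1 of 8 lay above all heat stress libraries (CAD; 6.31% of all) and 1 below (ASRGL1; 5.54% of all). Against control, 2 lay higher with L-Asp (CAD and UMPS; 19% of all; CAD overlaps control replicate 1 taken singly) and 1 lower (ASRGL1; 26% of all). A count of 1 or 2 among 8 genes lies too near these shares to be a result about the enzymes. The comparisons share libraries: both comparisons with control use the same averaged control, and heat stress enters as the treated group in one and as the reference in another.

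**Figure D4:**
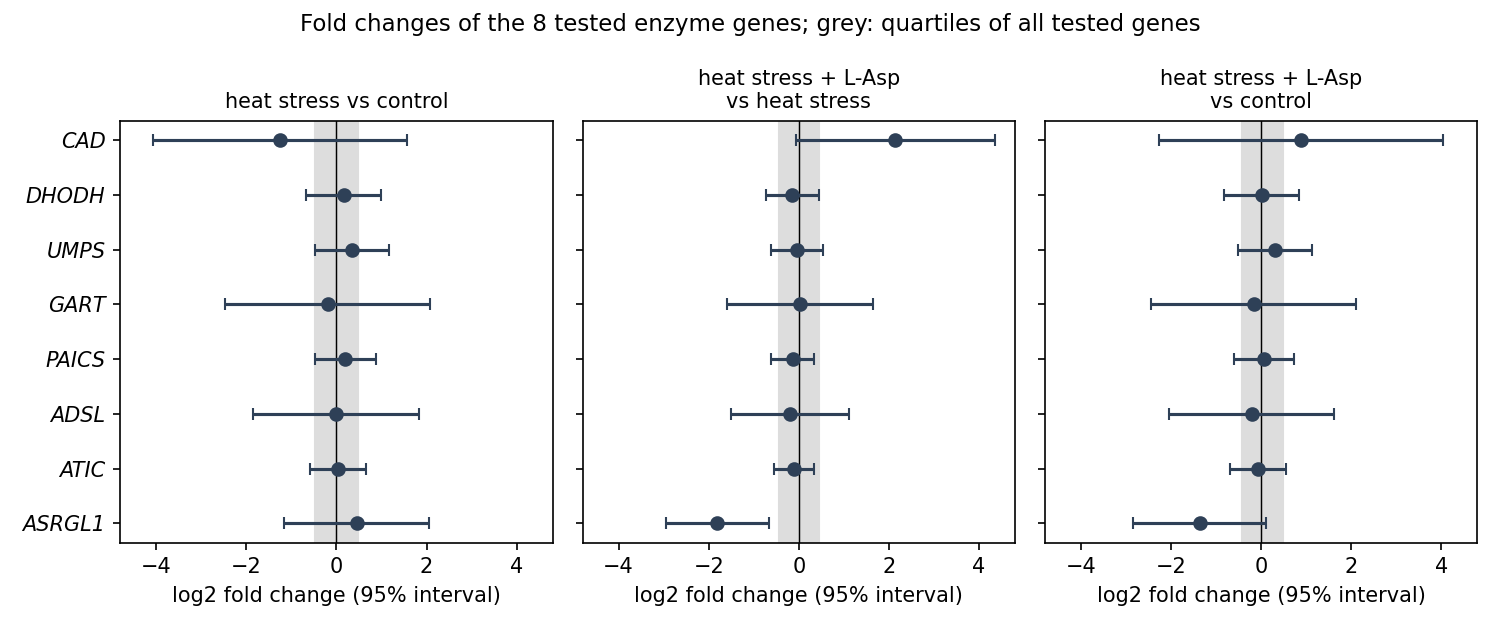
Log2 fold change with its 95% interval for the 8 tested enzymes in each comparison; the grey band runs from the lower to the upper quartile of all 15012 tested genes. Only the ASRGL1 interval for L-Asp over heat stress leaves out 0 (-2.96 to -0.67), before adjustment for the number of genes.

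The other genes of these pathways were read from 6 lists of 68 genes in all, of which 61 were matched and 56 tested. None passed by edgeR in any comparison. Of all tested genes, 50.1% lay above 0 for heat stress over control and 49% for L-Asp over heat stress. Around purine synthesis and its branches to AMP and GMP, 3 of 7 lay above 0 for heat stress over control (median -0.05) and 4 of 7 for L-Asp over heat stress (median 0.052). PRPS1, which makes the activated ribose for both pathways, measured 29.8 CPM in control, 66.2, 61.2 and 37.8 CPM in heat stress and 51.8, 43.5 and 45.2 CPM with L-Asp (heat stress over control, log2 fold change 0.89 ± 0.40). IMPDH2, the first step towards GMP, measured 67.4 CPM in control, 54.9, 49.97 and 66.3 CPM in heat stress and 91.7, 64.7 and 106 CPM with L-Asp, where the heated groups overlapped. In pyrimidine salvage and CTP synthesis 8 of 10 lay above 0 with heat stress and 3 of 10 for L-Asp over heat stress. Some of these genes were scarce, so their signs say little. UPRT, TK1 and CDA averaged 3.49, 2.91 and 1.59 CPM, with an SE of 1.32, 1.18 and 1.62 for heat stress over control. There CMPK1, which phosphorylates UMP and CMP, measured 48.3 CPM in control, 68.9 ± 19.1 CPM in heat stress and 56.6 ± 7.92 CPM with the added L-Asp (SD, n = 3 each).

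Purine salvage and breakdown genes lay above 0 in 4 of 11 cases for heat stress over control and 6 of 11 for L-Asp over heat stress. In the latter, 3 of 11 had heated groups that did not overlap, all higher with L-Asp (AMPD2, AMPD3 and ITPA; 6.31% of all tested genes). This count was the largest of the lists and is given after it was seen. Each other list had 0 or 1 gene higher and 0 or 1 lower. For heat stress over control, 5 of the 11 lay below control in all heat stress libraries and 0 above (25% and 17.3% of all tested genes). AMPD2, an AMP deaminase of the cycle in which aspartate turns IMP back into AMP, measured 34.6 CPM in control. The heat stress libraries held 17.1, 30.7 and 28.98 CPM and those with L-Asp 38.6, 40.6 and 69.6 CPM (edgeR, adjusted p = 0.738 for L-Asp over heat stress). AMPD3, a second deaminase, named here after its values were seen, measured 142 CPM in control, 94.05 ± 7.82 CPM in heat stress and 128.4 ± 12.2 CPM with the added L-Asp (SD, n = 3 each). ITPA, which clears inosine triphosphate, measured 46.9 CPM in control, 22.8, 29.8 and 22.7 CPM in heat stress and 31.3, 30.9 and 34.3 CPM with L-Asp. All heated libraries lay below control for ITPA.

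Of the deoxynucleotide genes, 4 of 7 lay above 0 for heat stress over control and 3 of 7 for L-Asp over heat stress. SAMHD1, which breaks down deoxynucleotides, measured 7.06 CPM in control, 20.4, 12.6 and 11.3 CPM in heat stress and 7.03, 6.87 and 8.48 CPM with L-Asp (log2 fold change of L-Asp over heat stress -0.99 ± 0.38, SE). The heated groups did not overlap, and those with L-Asp lay around control. DTYMK, which phosphorylates dTMP, measured 7.67 CPM in control and 17.7, 34.2 and 12.9 CPM in heat stress. With L-Asp it measured 17.7, 16.996 and 12.1 CPM, so that every heated library lay above control. The folate genes that feed carbon to GART and ATIC lay above 0 in 3 of 7 and 5 of 7 cases. SHMT2, the mitochondrial serine hydroxymethyltransferase, measured 71.7 CPM in control, 32.2, 36.9 and 58.9 CPM in heat stress and 51.0, 71.7 and 92.2 CPM with L-Asp (log2 fold change of L-Asp over heat stress 0.75 ± 0.30, SE). ALDH1L2 measured 24.6 CPM in control, 11.2 ± 3.95 CPM in heat stress and 13.99 ± 6.53 CPM with the added L-Asp (SD, n = 3 each).

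Among 14 other aspartate and urea-cycle genes, 8 lay above 0 for heat stress over control and 3 for L-Asp over heat stress (median -0.34). GOT2, the mitochondrial enzyme that makes aspartate, measured 59.7 CPM in control, 59.3, 41.9 and 54.9 CPM in heat stress and 67.1, 84.4 and 66.9 CPM with L-Asp, without overlap of the heated groups (log2 fold change 0.48 ± 0.24, SE). ASNS, which turns aspartate into asparagine, measured 141 CPM in control, 243 to 306 CPM in heat stress and 215 to 273 CPM with L-Asp, so that every heated library lay above control. ASNS and ASRGL1 run opposite reactions: for L-Asp over heat stress the log2 fold change of ASNS was -0.14 ± 0.20 and that of ASRGL1 -1.81 ± 0.52 (SE). The difference between these genes was not tested.

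**Figure D5:**
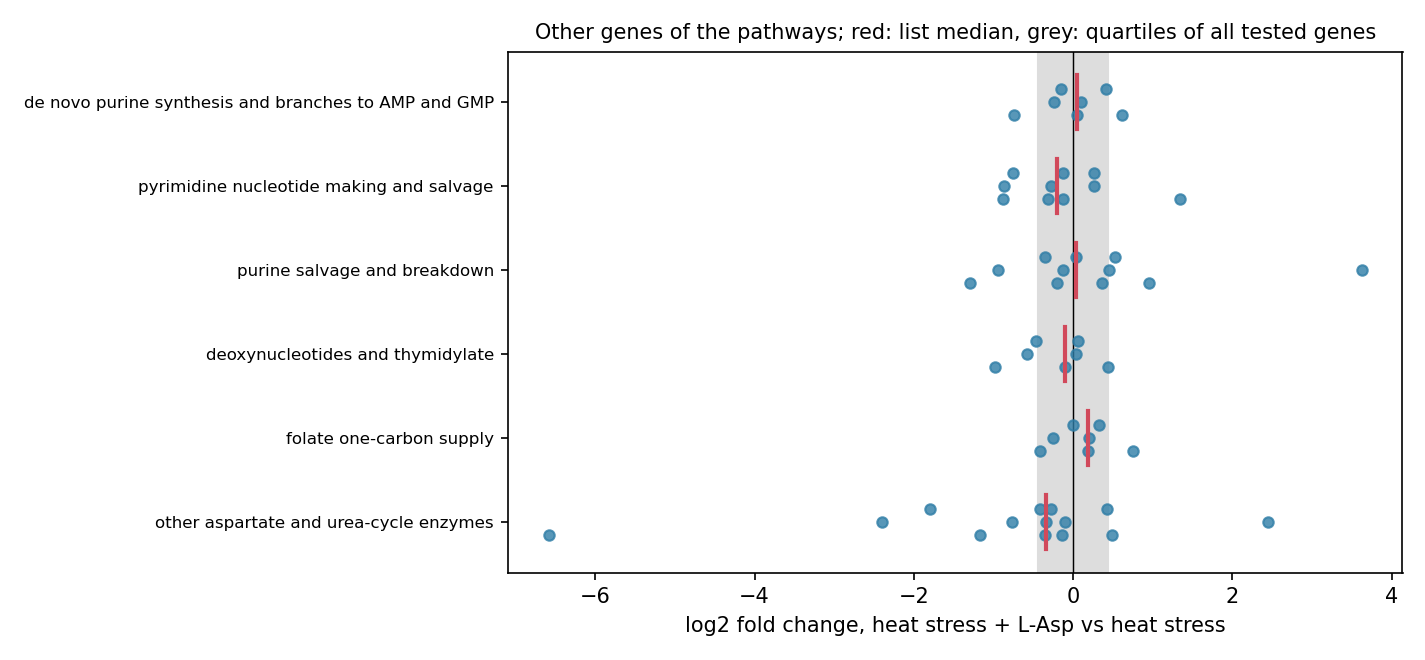
Log2 fold change of L-Asp over heat stress for the tested genes of the 6 pathway lists (points), with each list's median in red and the span between quartiles of all tested genes in grey. List medians lie between -0.34 (other aspartate and urea-cycle enzymes) and 0.19, within the quartiles of all tested genes (-0.44 and 0.44, median -0.01). The farthest point on the left, ARG2, was at 0 counts in all libraries with L-Asp, so its fitted size is not firm.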

How the data were processed

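One deposited table was used, with counts and FPKM values per gene and library, gene symbols and coordinates, per the file headers. The deposited counts are whole numbers and were used unchanged; levels per length come from the FPKM that the authors deposited. Tools in the submitters' processing notes, with no role given, are StringTie 2.1.6, HISAT2 2.2.1, cutadapt 1.9, edgeR and DESeq2. Build and counting method: not given in the sources used here. Per the labels' protocols, cDNA was primed with oligo(dT) and amplified by PCR, with no step that marks strand and no molecular identifiers described. Another 6 columns of per-sample values match no sample listed here and were not used here.

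Genes were filtered with filterByExpr on the 9 libraries (15012 kept), scaled by TMM and tested with edgeR 4.0.16 (glmQLFit, robust; glmQLFTest) on the averaged control and 6 heated libraries, 1 mean per group, 4 residual degrees of freedom. A Benjamini-Hochberg adjusted p under 0.05 over all genes counted as passing. The SE is the log2 fold change divided by the root of F; intervals are at 95%. CPM of single control libraries use the averaged control's scaling. Alternatives were DESeq2 1.42.0, 9 libraries, other filters and scaling, a replicate block, no mitochondrial genes and leaving out each library; the 6 heated libraries without a block were added after seeing the data.

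The enzymes and gene lists were chosen with earlier results of these data known. All enzymes are named; of each list, the gene of smallest p with a mean of at least 10 CPM. All 10 symbols matched RefSeq by gene ID. No sequence is printed.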

Additional observations from a re-analysis of the deposited data

How the results depend on the processing

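None of the 8 tested enzymes passed under any alternative or with any library left out, and 202 of 208 single-gene values under the alternatives kept their direction. The exceptions lay near 0: for heat stress over control, ADSL was 0.021 with DESeq2, 0.021 with median-of-ratios scaling and 0.0098 among genes averaging 50 counts or more. For L-Asp over control, DHODH was -0.0083 without a filter, -0.0073 with the filter recomputed on 7 libraries and -0.0048 without mitochondrial genes. In these fits the median over all genes moved the same way, by 0.030 to 0.035 in the first comparison and by -0.018 to -0.014 in the second, which is more than the -0.012 of ADSL and the 0.0097 of DHODH were from 0, so these changes of sign say nothing particular to either gene.

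Leaving out 1 library turned 20 of 216 values. For heat stress over control the ranges were -0.61 to 0.25 for ADSL, -0.58 to 0.18 for GART, -0.20 to 0.75 for ASRGL1 and -0.036 to 0.11 for ATIC. For L-Asp over heat stress they were -0.46 to 0.40 for ADSL, -0.21 to 0.12 for UMPS and -0.34 to 0.41 for GART. For L-Asp over control they were -0.15 to 0.097 for DHODH, -0.44 to 0.092 for GART, -0.088 to 0.17 for PAICS and -0.13 to 0.020 for ATIC. Over all alternatives the adjusted p of ASRGL1 for L-Asp over heat stress was 0.0599 to 1, and that of CAD 0.281 to 1.

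Counts over all genes, 0 in each comparison, moved more. For heat stress over control they were 433 with 9 libraries, 183 with DESeq2, 9 without a filter and 0 to 1 with a library left out. For L-Asp over heat stress they were 2, 179, 2 and 0 to 3, and 2 with the filter on 7 libraries. For L-Asp over control they were 269, 64, 3 and 0 to 1. With the replicate number as a block on 9 libraries they were 378, 0 and 223 in that order, and 0 on the 6 heated libraries. Same-numbered libraries correlated at -0.024 to 0.051 in their deviations, and 0 to 1 of 3 correlated best with their own. With 3 libraries per group, and control libraries that differ by little more than sampling noise, this cannot settle whether a number marks a shared animal, batch or day. The averaged control gives no spread of its own, and few fragments limit CAD, GART and ADSL.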

Other observations

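The genes whose pattern over the 7 libraries lay nearest to an enzyme were sought among 5757 genes with a symbol and a mean of at least 10 CPM, by the root mean square difference of centred log2 CPM. ATIC was nearest to SEC24A, a coat protein of vesicles leaving the endoplasmic reticulum, with a difference of 0.044. PAICS was nearest to CDC42SE2, with 0.051, and DHODH to PIWIL3, an Argonaute protein of the germ line, with 0.084. SEC24A measured 48.8 CPM in control, 47.6 to 53.2 CPM after heat stress and 39.4 to 49.5 CPM with L-Asp. With 7 libraries and so many candidates, near patterns are a description only.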
